A study of Mus musculus with 8 samples.

Results

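Needling at the acupoints GB34 and LR3 during chronic MPTP treatment was set against MPTP treatment alone in the mouse striatum, on 4 of the study's 8 arrays, with 2 mice in each group. Every probe set that the platform's table pairs with exactly 1 gene symbol was taken, 21789 of 35557, and 16342 of them, for 14890 genes, were bright enough to be tested. All mice were male C57BL/6, an inbred strain, 6 weeks old. The MPTP group received MPTP-HCl at 20 mg/kg every 24 h for 4 weeks and no needling. The acupoint group received the same MPTP course and 14 needling sessions 48 h apart, the first 2 h after the first injection, with needles on both sides at a depth of 3 mm at GB34 and 1 mm at LR3. A further MPTP group was needled at the hips (3 mm), which the labels call non-acupoints, and control mice received saline, with 2 arrays each. The labels describe holding by hand for the acupoint group and not for the MPTP group, so holding and needling cannot be told apart. Each array held RNA of the striatal tissue of both sides, and the labels number the mice of a group 1 and 2. Values are log2 intensities of whole probe sets, so a difference of 1 is a doubling, and they compare the same probe set between arrays, never different genes.

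MPTP is turned into a toxin that dopamine neurons of the substantia nigra take up, and their axons in the striatum are lost. Most striatal neurons are projection neurons. Those of the direct pathway carry the receptor Drd1 and the peptides Tac1 and Pdyn, and those of the indirect pathway carry Drd2 and Penk. Dopamine reaching these cells tunes cAMP signalling, which feeds into immediate early genes, transcription factors and synaptic genes that turn on within minutes of activity. The striatum borders the lateral ventricle, which is lined by ependymal cells with motile cilia and holds the choroid plexus, and it lies beside the septum, the pallidum and the thalamus. GB34 lies on the leg below the knee and LR3 on the foot.

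The MPTP mice differed from each other more than the mice of any other group. Log2 values of MPTP mice 1 and 2 correlated at 0.95 over the tested probe sets, against 0.989 in the acupoint group and 0.995 in controls, and 829 probe sets (5.07%) differed by 1 or more within the MPTP pair, against 72 (0.441%) within the acupoint pair. The tissue markers showed where they differed. Relative to the mean of the controls, the 19 genes of striatal projection neuron signalling averaged -1.38 in MPTP mouse 1 and 0.27 in MPTP mouse 2, against -0.15 and 0.22 in acupoint mice 1 and 2. Genes that mark the thalamus, 16 in number, averaged 2.21 and -0.59 in the MPTP mice and 0.68 and -0.09 in the acupoint mice. The 14 choroid plexus genes, led by the transthyretin gene Ttr, averaged 2.13 and -0.19 in the MPTP mice and 2.25 and 0.07 in the acupoint mice. Thus MPTP mouse 1 was low in genes that define the striatum and high in those of the thalamus. Choroid plexus genes were high in mouse 1 of both the MPTP and the acupoint group. In RNA from whole tissue, fewer cells of a type and less RNA per cell cannot be told apart. The part of these marker levels in the results that follow was not tested, and lists are therefore given also without MPTP mouse 1 and, for many, without MPTP mouse 2.

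**Figure D1:**
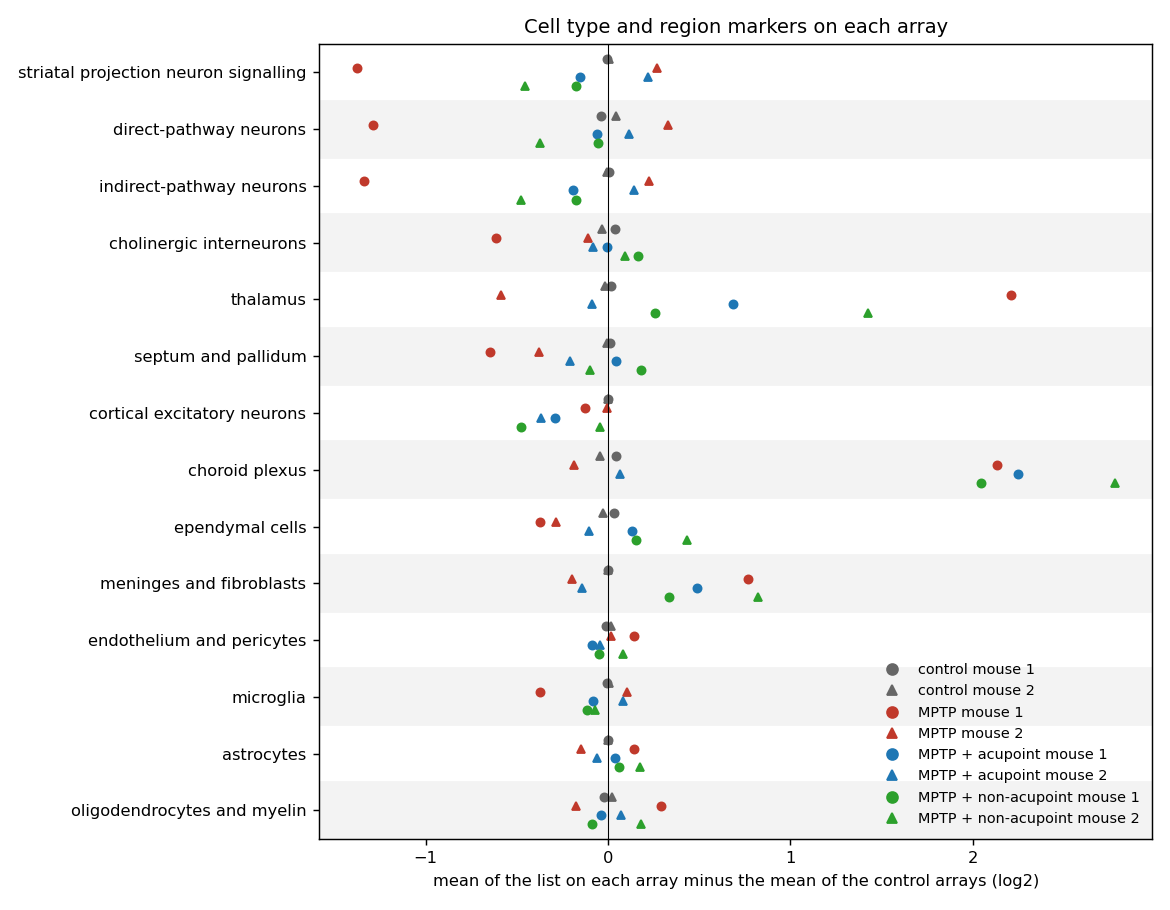
Mean log2 level of 14 marker lists on each of the 8 arrays, minus the mean of the control arrays (horizontal axis); circles are mouse 1 and triangles mouse 2, with colours for the groups. MPTP mouse 1 stands at -1.38 for striatal signalling and 2.21 for thalamus, while choroid plexus genes stand above 2 in MPTP mouse 1, acupoint mouse 1 and both non-acupoint mice.

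No single probe set passed the test across all of them. With limma and Benjamini-Hochberg adjustment, 0 of 16342 probe sets (0%) had an adjusted p under 0.05 between the acupoint and MPTP groups, and the smallest adjusted p of a named gene was 0.902. Before adjustment, 170 probe sets (1.04%) were higher and 418 (2.56%) lower in the acupoint group at a p under 0.05 in limma. In sum these were fewer than 817, the number that evenly spread p-values would give. Pairs of mice with unlike spread share 1 estimate in this fit, so the shortfall is no measure of chance. The count stayed at 0 without MPTP mouse 1 and without either acupoint mouse, and was 1453 without MPTP mouse 2, where MPTP mouse 1 stood alone for its group and was assumed to vary like the others. Both acupoint arrays lay above both MPTP arrays, here called apart, for 1375 probe sets (8.41%), and below both for 3082 (18.9%). The split between higher and lower moved with the scaling of the arrays. The median of the tested probe sets was 7.54 on the array of acupoint mouse 2 and between 7.55 and 7.65 on the other arrays. The share of higher ones among those at an unadjusted p under 0.05 was 28.9% on the deposited values, 51.4% with each array centred on its median (261 higher and 247 lower) and 45% after quantile normalisation (259 higher and 317 lower). Among the genes that were apart, more were still lower than higher after rescaling: 1176 (7.9%) higher and 2889 (19.4%) lower of 14890 on the deposited values, 1756 (11.8%) and 2103 (14.1%) with centred arrays, and 1630 (10.9%) and 2288 (15.4%) after quantile normalisation.

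The count of large differences depended on which mice were set against each other. Acupoint mouse 1 was higher by 1 or more than MPTP mouse 1 for 304 probe sets and lower for 153, but higher than MPTP mouse 2 for 96 and lower for 6. Acupoint mouse 2 was higher than MPTP mouse 1 for 386 and lower for 341, but higher than MPTP mouse 2 for 19 and lower for 8. In percent of the probe sets, acupoint mice 1 and 2 differed by 1 or more from MPTP mouse 1 for 2.8% and 4.45%, and from MPTP mouse 2 for 0.624% and 0.165%. Only 9 probe sets were apart with a mean difference of at least 1. Higher were Glp1r, Cxcl5, Nts, Trpc4, Snord47 and Olfr767 (6, or 0.0367%), and lower were Slc17a7, Necab3 and Car4 (3, or 0.0184%). Car4, Necab3, Snord47 and Olfr767 lie outside the rule by which other genes were named and are listed because this count is small. Car4, a carbonic anhydrase, was 9.59 and 7.81 in the MPTP mice and 7.77 and 7.47 in the acupoint mice, so its mean difference of -1.08 became -0.19 without MPTP mouse 1. Necab3, a neuronal calcium-binding protein gene, was 8.25 and 7.07 in the MPTP mice and 6.38 and 6.77 in the acupoint mice, a difference of -1.09 that became -0.50 without MPTP mouse 1.

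**Figure D2:**
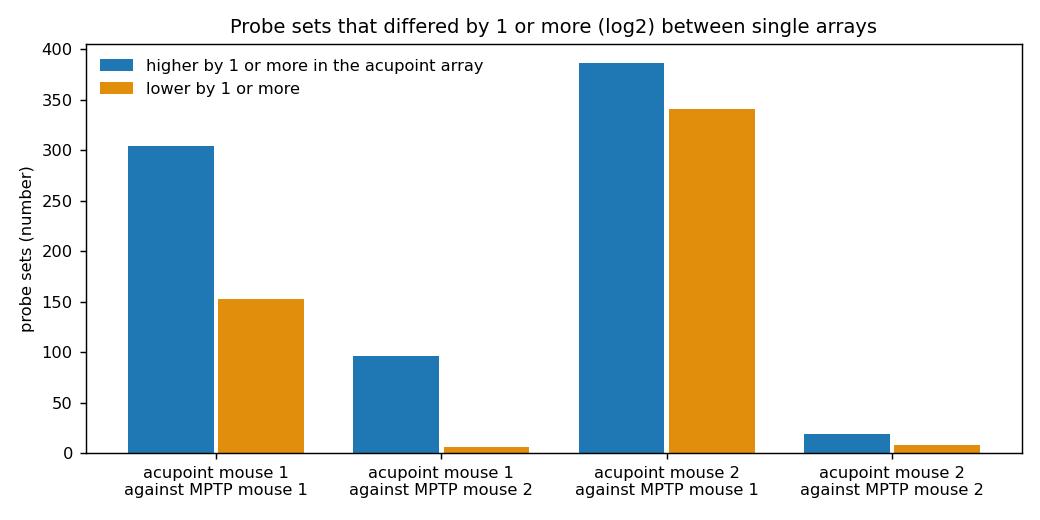
Number of probe sets (vertical axis) that were higher or lower by 1 or more on the log2 scale in an acupoint array than in an MPTP array, for the 4 pairs of single arrays, of 16342 tested. Both pairs with MPTP mouse 1 hold the most, 304 and 153 for acupoint mouse 1 and 386 and 341 for acupoint mouse 2.

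Among the 12 genes with the widest gap between the lower acupoint array and the higher MPTP array were receptors, a chemokine, transcription factors and genes of cilia. These genes were picked on this very contrast, so their differences describe the arrays and are no test. Glp1r, the receptor for glucagon-like peptide, was 5.76 and 5.68 in the MPTP mice and 7.70 and 7.01 in the acupoint mice. Controls stood at 7.42 and 7.42, and the hip-needled mice at 7.52 and 7.70. Only the MPTP mice were thus low in Glp1r, and the acupoint mice lay on both sides of the controls, with a difference from MPTP of 1.63 (SE 0.21) that was 1.67 without MPTP mouse 1. Cxcl5, a chemokine that attracts neutrophils, was 5.32 and 5.05 in the MPTP mice, 6.69 and 6.08 in the acupoint mice and 6.43 and 6.70 in controls (difference 1.20, SE 0.23). Its value in MPTP mouse 2 lay below 5.25, the mean level required for testing. Met, the hepatocyte growth factor receptor, was 5.47 and 5.70 in the MPTP mice and 7.02 and 6.11 in the acupoint mice (0.98, SE 0.28). Eomes, a T-box transcription factor, stood at 5.38 and 5.33 against 6.36 and 5.97 (0.81, SE 0.14), and E2f3, a transcription factor of the cell cycle, at 7.24 and 7.26 against 7.66 and 7.70 (0.43, SE 0.10). A second probe set of E2f3 differed by 0.10. Avpr1a, the vasopressin receptor of brain and vessels, was 6.24 and 6.10 in the MPTP mice and 6.85 and 6.76 in the acupoint mice, with controls at 7.03 and 7.14. It was apart with little spread within either pair (difference 0.64, SE 0.11), and the acupoint mice stayed below both controls. Dnajb6, a co-chaperone that keeps proteins from clumping, was 5.44 and 5.39 against 6.07 and 5.99, and the small cytoplasmic RNA Rny1 was 7.96 and 7.92 against 8.55 and 8.73. Ccdc81 (0.54), Nudt10 (0.50), Rsph4a (0.71) and Tmem212 (0.75) completed the set. In all 12 genes the MPTP arrays were the lowest of the 8 arrays, and in 0 of them were the acupoint arrays the highest.

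The 12 genes with the widest gap downwards were led by Slc17a7, the vesicular glutamate transporter of cortical neurons. It was 9.79 and 9.50 in the MPTP mice and 7.77 and 8.28 in the acupoint mice, against 9.47 and 9.47 in controls and 6.61 and 8.84 in the hip-needled mice. Its level was thus like that of controls in the MPTP mice and lower in the acupoint mice, by 1.62 on the log2 scale (SE 0.63), and it spread most widely within the hip-needled pair. Among the other genes with wide gaps, Polr2k, a small subunit shared by the RNA polymerases, was 5.82 and 5.71 against 5.16 and 5.05. Both acupoint values lay below 5.25, the mean level required for testing, as did those of Fam151a, at 5.09 and 5.19. Gja4, a connexin of arterial endothelium, was 6.14 and 6.07 in the MPTP mice and 5.53 and 5.65 in the acupoint mice, with controls at 5.63 and 5.72. Degs2, an enzyme of sphingolipid synthesis, was 6.59 and 6.57 against 6.14 and 6.08 (difference -0.47, SE 0.09), and Dus2, which modifies transfer RNA, was 7.95 and 7.60 against 7.21 and 7.21 (-0.57, SE 0.13). Rnd2 was 9.87 and 9.86 against 9.41 and 9.49, and Xkr4, a membrane protein of the XK family, was 8.80 and 8.58 against 8.14 and 8.20. Fam151a (-0.58), Fam114a1 (-0.50), Smco4 (-0.46), Msmp (-0.41) and Bnip5 (-0.39) made up the rest. In all 12 of these genes the MPTP arrays were the highest of the 8, and in 8 of them the acupoint arrays were also the lowest. By the smallest p-values, Rhov (-0.58), Macrod1 (-0.53), Nr2c2ap (-0.47) and Egfem1 (-0.39) came in addition, each with an adjusted p of 0.902 in limma with Benjamini-Hochberg adjustment.

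**Figure D3:**
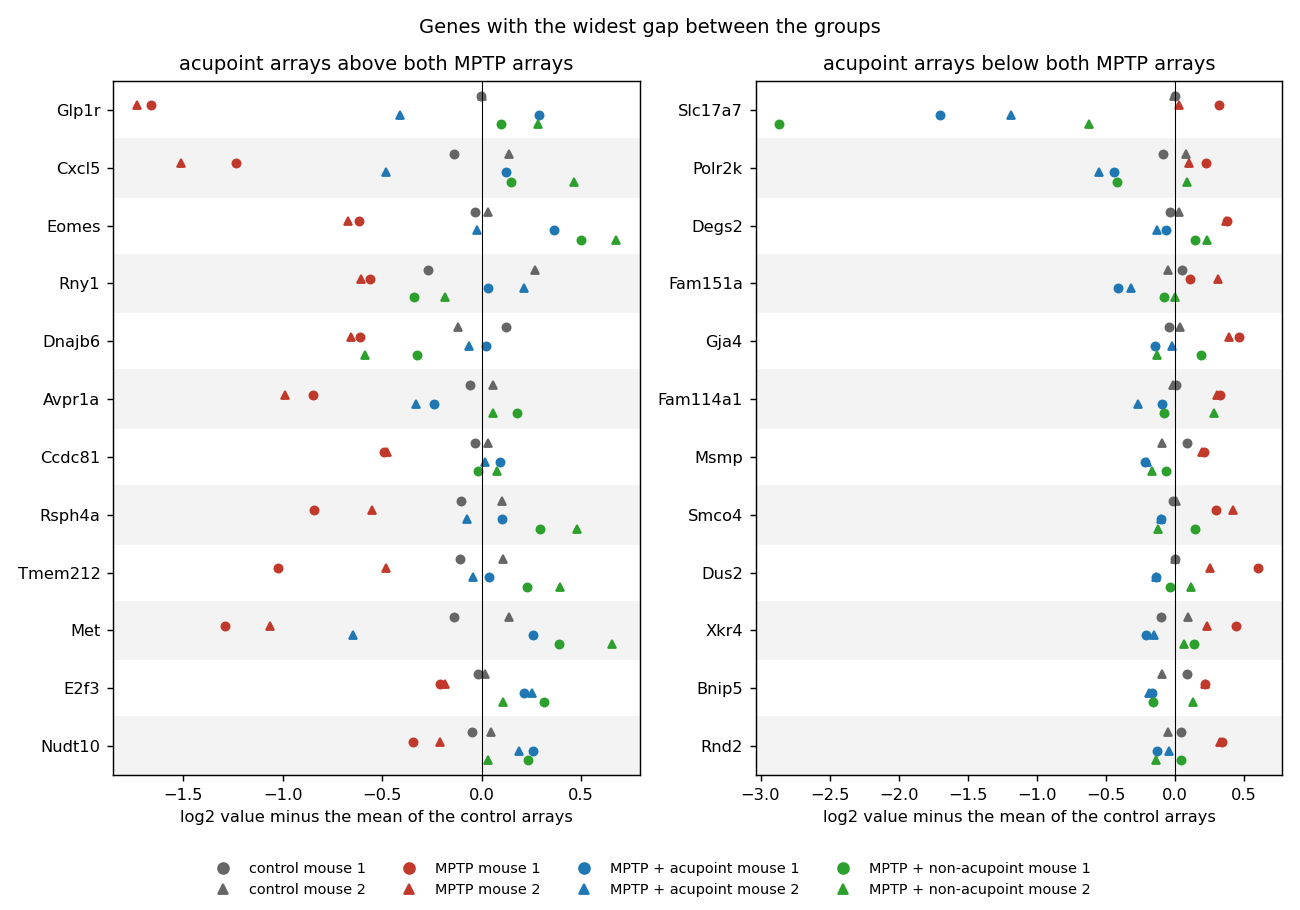
Log2 value of 24 genes on each of the 8 arrays minus the mean of the control arrays (horizontal axis), for the 12 genes with the widest gap between groups in each direction; circles are mouse 1, triangles mouse 2. The red MPTP points lie outermost in every row, and the gaps to the acupoint points run from 0.394 to 1.25 on the left and from 0.372 to 1.22 on the right.

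Genes of ependymal cells were higher in the acupoint mice than in the MPTP mice. Of 12 listed, 1 was too dim and 11 were tested. All 11 were higher by the group means, where 39.3% of all genes were, 8 were apart upwards, where 7.9% of all genes were, and 5 had an unadjusted p under 0.05 in limma, where 0.987% of all genes did so upwards. The median difference was 0.37, against -0.04 over all 14890 genes, and it was 0.27 without MPTP mouse 1, 0.30 without MPTP mouse 2, 0.25 without acupoint mouse 1 and 0.42 without acupoint mouse 2. Tmem212, a membrane protein of ependymal cells, was 6.11 and 6.65 in the MPTP mice and 7.17 and 7.09 in the acupoint mice. Ak7, an adenylate kinase of cilia, was 6.20 and 6.94 against 7.53 and 7.09. Dynlrb2, a dynein light chain, was 5.95 and 6.00 against 6.63 and 6.33, with controls at 6.24 and 6.23. Ccdc153, a component of the ciliary axoneme, was 8.04 and 8.29 against 8.71 and 8.41, and the chemerin gene Rarres2 was 6.41 and 6.52 against 6.94 and 6.81. The groups also did not overlap for Mia (0.37), Hydin (0.27), a protein of the central pair of motile cilia, and Tekt1 (0.15), a filament protein of the axoneme. They overlapped for Foxj1, the master transcription factor of motile cilia, which was 6.58 and 6.48 against 6.72 and 6.52, and for Cfap126 and Rsph1, with differences of 0.05 and 0.01. The MPTP mice averaged -0.37 and -0.28 relative to controls over the list, the acupoint mice 0.13 and -0.10, and the hip-needled mice 0.15 and 0.44. Genes of the septum and pallidum had a like order, at -0.65 and -0.38 in the MPTP mice and 0.04 and -0.21 in the acupoint mice, while choroid plexus genes were high in mouse 1 of both groups. The part of neither in the ependymal values was tested.

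The wider set of motile cilium axoneme genes, dyneins, radial spokes, tektins and their partners, held 38 tested genes, of which 31 were higher and 7 lower. The groups were apart upwards for 13, or 34.2%, and downwards for 2, or 5.26%, against 7.9% and 19.4% of all genes. The median was 0.16, with 0.12 without MPTP mouse 1 and 0.16 without MPTP mouse 2, but 0.067 without acupoint mouse 1 and 0.32 without acupoint mouse 2. Rsph4a, a radial spoke head protein, was 6.02 and 6.31 in the MPTP mice and 6.96 and 6.79 in the acupoint mice. Cfap44, which anchors inner dynein arms, was 5.71 and 5.95 against 6.64 and 6.33 (difference 0.65, SE 0.16). Tekt5, a tektin best known from sperm, went against the rest, at 7.96 and 7.54 against 7.20 and 7.25 (-0.53, SE 0.15).

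Promoters of ependymal genes that were apart are shown because many ciliary genes carry in them the X-box, a palindrome bound by RFX factors. The letters GTTGCC, an arm of that box, were searched on both strands (GGCAAC on the strand shown) in the 300 bases of each RefSeq promoter of build GRCm38.p6, from 250 before to 50 after the start. They were found in 4 of the 8 ependymal genes that the promoter table holds (50%), in 10 of 34 cilium genes (29.4%) and in 12.9% of the 11809 tested genes with a promoter there. Of the cilium genes that were apart upwards, 2 of 12 (16.7%) held them. A match is a description of letters, not of binding. Capitals mark the matches in 3 of the 4 ependymal genes.
Ccdc153, chr9:44240427-44240726, plus strand: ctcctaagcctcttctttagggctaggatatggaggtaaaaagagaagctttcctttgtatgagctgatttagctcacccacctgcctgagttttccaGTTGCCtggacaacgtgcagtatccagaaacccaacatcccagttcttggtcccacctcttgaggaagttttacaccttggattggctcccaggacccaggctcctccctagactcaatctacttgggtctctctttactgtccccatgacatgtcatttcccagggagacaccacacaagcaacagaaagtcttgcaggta
Dynlrb2, chr8:116504765-116505064, plus strand: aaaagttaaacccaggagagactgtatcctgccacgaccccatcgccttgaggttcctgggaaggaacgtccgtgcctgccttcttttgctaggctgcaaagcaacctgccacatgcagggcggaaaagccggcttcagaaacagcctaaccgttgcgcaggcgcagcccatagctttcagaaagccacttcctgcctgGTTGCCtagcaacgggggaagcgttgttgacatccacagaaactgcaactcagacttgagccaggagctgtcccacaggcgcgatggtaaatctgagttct
Tekt1, chr11:72361833-72362132, minus strand: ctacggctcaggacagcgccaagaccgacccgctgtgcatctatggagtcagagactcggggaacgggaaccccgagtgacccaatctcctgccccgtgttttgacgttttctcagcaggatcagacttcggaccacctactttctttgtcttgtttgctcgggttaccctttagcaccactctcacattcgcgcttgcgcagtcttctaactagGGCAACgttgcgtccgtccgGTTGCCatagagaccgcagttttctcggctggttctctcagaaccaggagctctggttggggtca
Counted from the gene start, the match began at -152 in Ccdc153 and at -51 in Dynlrb2, whose differences were 0.40 and 0.51, and the first of 2 matches at -35 in Tekt1, which differed by 0.15. Tmem212 (0.75), Ak7 (0.74) and Mia (0.37) had no match in this window.

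All 28 listed immediate early genes were tested. By the group means 17 were higher and 11 lower, and the groups were apart upwards for 9, or 32.1%, and downwards for 1, or 3.57%, against 7.9% and 19.4% of all genes. The median of 0.24 was 0.07 without MPTP mouse 1 and 0.37 without MPTP mouse 2. Relative to controls the list averaged -0.83 and -0.32 in the MPTP mice and -0.30 and -0.34 in the acupoint mice. The hip-needled mice stood at -0.34 and -0.44. Over the list MPTP mouse 2 was thus like the acupoint mice, and MPTP mouse 1 lay below them. Arc, which trims glutamate receptors from active synapses, was 7.60 and 8.33 in the MPTP mice, 8.67 and 8.65 in the acupoint mice and 9.41 and 9.36 in controls. Npas4, a transcription factor turned on by calcium influx, was 5.95 and 6.55 in the MPTP mice, 6.80 and 6.76 in the acupoint mice and 7.93 and 7.95 in controls. For both genes the acupoint mice were above both MPTP mice and below both controls, and the differences from MPTP of 0.69 and 0.53 were 0.33 and 0.23 without MPTP mouse 1. The hip-needled mice, at 8.77 and 8.61 for Arc and 6.99 and 7.09 for Npas4, also lay above both MPTP mice and below both controls. Nr4a3, an orphan nuclear receptor, was 6.45 and 7.51 against 7.73 and 7.70, with controls at 7.52 and 7.63. Fos overlapped, at 6.86 and 6.65 against 7.0 and 6.48, with controls at 7.56 and 7.58. Its difference of -0.02 was 0.01 with each array centred on its median. Nr4a2, a nuclear receptor that dopamine neurons also need, was the gene apart downwards, at 6.73 and 7.66 in the MPTP mice and 6.73 and 6.54 in the acupoint mice. For Nr4a2, MPTP mouse 1 and acupoint mouse 1 had nearly the same value, and MPTP mouse 2 stood above both acupoint mice.

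**Figure D4:**
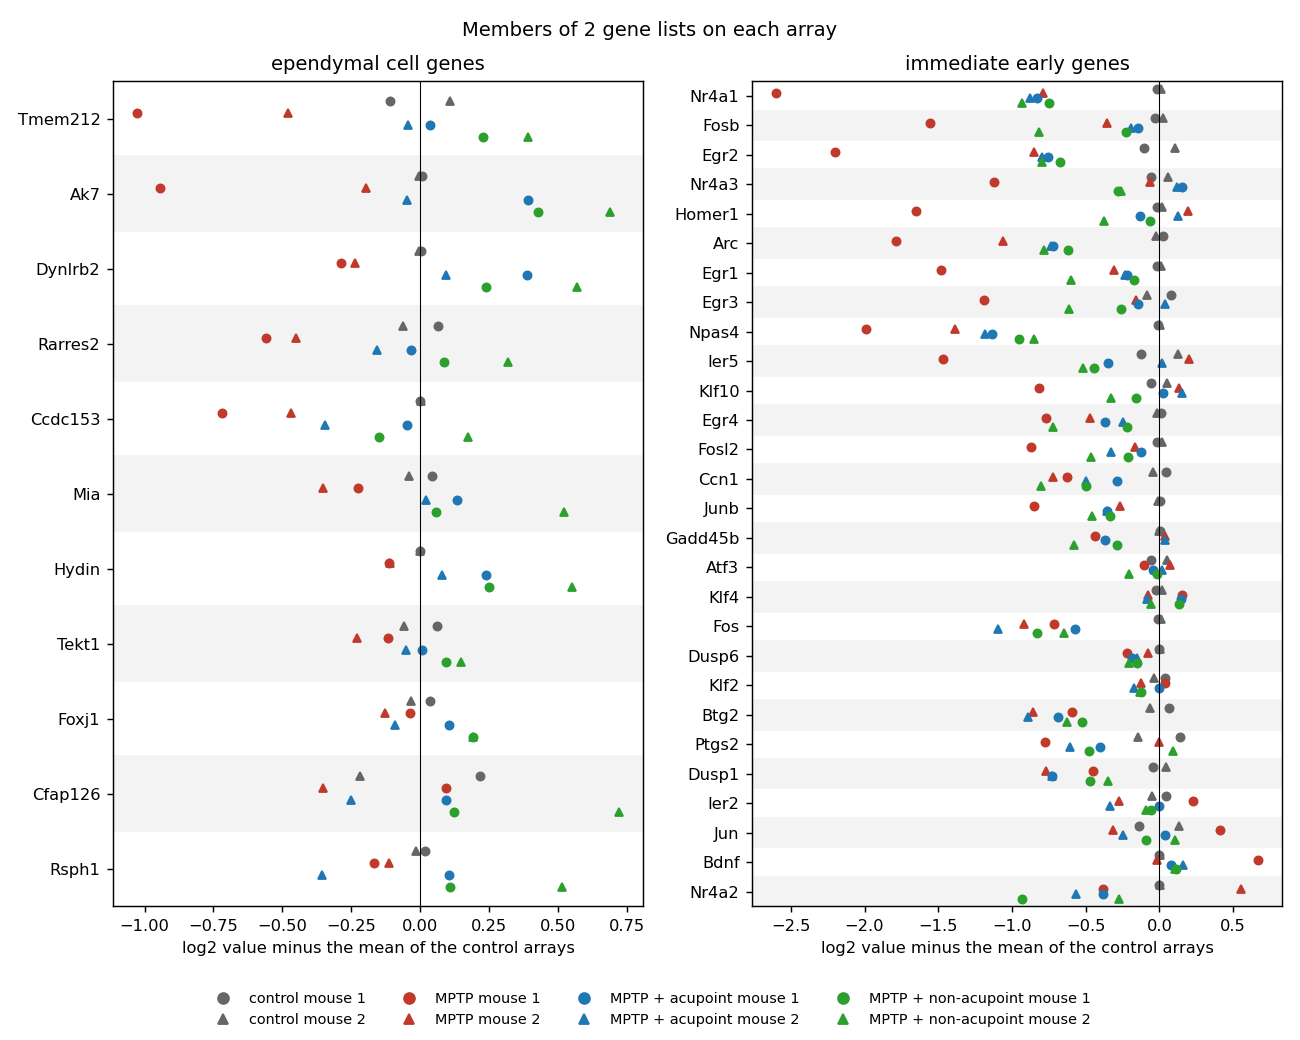
Log2 value minus the mean of the control arrays (horizontal axis) for the 11 ependymal genes and 28 immediate early genes on each of the 8 arrays, ordered by the acupoint minus MPTP difference; circles are mouse 1, triangles mouse 2. For most ependymal genes both MPTP points lie left of both acupoint points. The same holds for 9 of the 28 immediate early genes (32.1%), against 7.9% of all genes.

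Small nucleolar RNAs, which guide the modification of ribosomal RNA, and their host genes had 60 members listed, of which 39 were tested. Of these 25 were higher and 14 lower, 12 (30.8%) were apart upwards and 2 (5.13%) downwards, against 7.9% and 19.4% of all genes, and the median was 0.06 with all arrays, 0.13 without MPTP mouse 1 and 0.06 without MPTP mouse 2. Snord47 was 4.36 and 5.43 in the MPTP mice and 6.50 and 6.35 in the acupoint mice, with controls at 5.96 and 6.18. Its value in MPTP mouse 1 lay below 5.25, the mean level required for testing. Snord47 lies within the host gene Gas5, whose probe sets differed among themselves. The brightest Gas5 probe set was 11.07 and 10.96 against 11.01 and 10.85 (difference -0.08), while others differed by 0.81 and -0.28. A probe set that covers an intron-borne small RNA and one of its host transcript can share signal, so these values are uncertain. The host genes Snhg16 and Snhg11 differed by 0.25 and -0.13. Cytosolic ribosomal protein genes lay near 0, with 35 of 59 higher, 12 (20.3%) apart upwards, 5 (8.47%) apart downwards and a median of 0.03 that was -0.03 without MPTP mouse 1. Rps15 (0.23) and Rps15a (0.40) had the smallest p-values there, and many of these genes have near-identical pseudogenes that can share probes.

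Genes of the septum and pallidum were higher in the acupoint mice. Of 10 tested, 9 were higher, against 39.3% of all genes, 4 were apart upwards, against 7.9%, and 0 downwards. The median of 0.29 was 0.16 without MPTP mouse 1, 0.38 without MPTP mouse 2, 0.18 without acupoint mouse 1 and 0.39 without acupoint mouse 2. Without MPTP mouse 1, 7 were higher and 3 lower. The list shares genes, Lhx8 among them, with the cholinergic interneuron list given below. Trpc4, a cation channel abundant in the lateral septum, was 6.36 and 7.87 in the MPTP mice and 8.64 and 8.17 in the acupoint mice, with controls at 8.50 and 8.71. The neuropeptide neurotensin gene, Nts, was 6.80 and 8.30 against 8.83 and 8.48, with controls at 8.54 and 8.72. Both were thus lowest in MPTP mouse 1, and their differences of 1.29 and 1.11 were 0.53 and 0.36 without MPTP mouse 1. Genes of cortical excitatory neurons were split, with 6 higher and 6 lower of 12. Slc17a7, Neurod2 and Rspo1 were apart downwards, 3 of 12 (25%) where 19.4% of all genes were. With each array centred on its median it was again 3 (25%), against 14.1% of all genes. The 3 genes had an unadjusted p under 0.05 downwards in limma, against 2.65% of all genes. Neurod2, a transcription factor of these neurons, was 6.90 and 7.05 in the MPTP mice and 6.52 and 6.68 in the acupoint mice, against 6.92 and 6.92 in controls. The hip-needled mice, at 6.40 and 6.71, were also below both controls for Neurod2. Rspo1, a Wnt signal enhancer, was 6.53 and 6.49 against 6.20 and 6.06. The median of the cortical list was -0.17, with -0.25 without MPTP mouse 1 and -0.18 without MPTP mouse 2.

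Endothelial and pericyte genes were lower in the acupoint mice, with 15 of 18 below the MPTP mean, where 60.7% of all genes were. The groups were apart downwards for 8, against 19.4% of all genes, and upwards for 0, and 3 had an unadjusted p under 0.05 downwards in limma, against 2.65% of all genes. The median of -0.16 was -0.07 without MPTP mouse 1, -0.22 without MPTP mouse 2 and -0.09 without acupoint mouse 1. With each array centred on its median 5 (27.8%) were apart downwards, against 14.1% of all genes. Cldn5, the tight junction protein of the blood-brain barrier, was 8.62 and 8.58 in the MPTP mice and 8.19 and 8.23 in the acupoint mice, with controls at 8.71 and 8.76 (difference -0.39, SE 0.13). Tek, the angiopoietin receptor, was 8.01 and 8.03 against 7.81 and 7.63, with controls at 7.96 and 7.92. Cldn5 and Tek thus stood near controls in the MPTP mice and below them in the acupoint mice. In the hip-needled mice Cldn5 was 8.51 and 8.17, also below both controls, and Tek was 7.82 and 8.06, on both sides of them. A Cldn5 level below controls was thus not particular to the acupoint mice. Vtn, a pericyte gene in the brain, was 10.42 and 10.19 against 9.80 and 10.02, with controls at 10.22 and 10.14. The hip-needled mice stood at 9.80 and 10.10 for Vtn.

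Genes of protein breakdown and of mitochondria had medians slightly below 0, as did all genes, of which 60.7% were lower and 19.4% apart downwards (14.1% with centred arrays). Of 36 proteasome subunits 27 were lower, with 12 (33.3%) apart downwards and 1 upwards, and 11 (30.6%) apart downwards with centred arrays. The median of -0.11 was -0.05 without MPTP mouse 1, -0.07 without acupoint mouse 2 and -0.08 with each array centred. Psmb5, which carries the chymotrypsin-like site of the core, was 9.39 and 9.53 in the MPTP mice and 8.95 and 9.18 in the acupoint mice, and controls, at 9.02 and 8.93, were like the acupoint mice. Of 77 mitochondrial ribosomal proteins 59 were lower, 27 (35.1%) apart downwards and 3 upwards, with a median of -0.06. With each array centred 20 (26%) were apart downwards and the median was -0.03. Mrps27 was 7.87 and 7.56 against 7.26 and 7.31, with controls at 7.18 and 7.22. Of 34 complex I subunits, the complex that the MPTP toxin blocks, 27 were lower and 10 (29.4%) apart downwards, a number that became 5 (14.7%), near the background, with centred arrays. Their median of -0.08 was 0.00 without MPTP mouse 1, where 17 were higher and 17 lower. Ndufa2, a subunit of complex I, was 9.31 and 9.24 against 8.93 and 8.96, with controls at 9.12 and 9.14. Of 43 subunits of complexes II to V 35 were lower and 8 (18.6%) apart downwards, no more than among all genes, and 2 (4.65%) with centred arrays, and the median of -0.06 was 0.02 without MPTP mouse 1. Uqcrc1, a core subunit of complex III, was 11.34 and 11.16 against 10.87 and 11.02.

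Genes of the projection neurons themselves turned with 1 array. Of 19 striatal signalling genes 18 were higher by the means, but 0 were apart upwards and 1, Foxp2, was apart downwards. The Foxp2 gap was only 0.022, and with centred arrays or after quantile normalisation 0 of the list were apart downwards. The median of 0.61 was -0.26 without MPTP mouse 1, where 18 were lower, and 1.54 without MPTP mouse 2. Ppp1r1b, the gene for the dopamine-regulated phosphatase inhibitor DARPP, was 8.97 and 11.65 in the MPTP mice and 11.21 and 11.55 in the acupoint mice, between the MPTP mice. Drd1 was 7.93 and 10.68 against 10.16 and 10.41, Drd2 was 8.15 and 10.54 against 9.92 and 10.44, and Tac1 was 8.70 and 11.63 against 11.34 and 11.54. In each the acupoint mice lay below MPTP mouse 2 and above MPTP mouse 1. The direct-pathway list had a median of 0.62 and of -0.28 without MPTP mouse 1, and the indirect-pathway list of 0.86 and of -0.28. Penk, the proenkephalin gene, was 11.32 and 13.30 against 13.05 and 13.35, and Pdyn, the prodynorphin gene, was 6.99 and 9.37 against 8.89 and 9.07. Cholinergic interneuron genes (median 0.40, and -0.06 without MPTP mouse 1) and GABA interneuron genes (0.29, and -0.29) turned in the same way. The thalamus list had a median of -0.46, with 0.75 without MPTP mouse 1 and -2.13 without MPTP mouse 2, and 0 of its 16 genes were apart.

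Genes that make, carry and break down dopamine had 12 tested members, of which 3 were higher and 9 lower. Apart upwards were 2 (16.7%), against 7.9% of all genes, and downwards 3 (25%), near the 19.4% of all genes. The median of -0.12 was 0.02 without MPTP mouse 1. Th, the enzyme that limits dopamine synthesis and is made mainly in the midbrain cell bodies, was 6.66 and 7.10 in the MPTP mice and 6.65 and 7.35 in the acupoint mice. Slc6a3, the dopamine transporter gene, was 6.77 and 5.93 against 5.73 and 6.70. Neither gene was apart. Ddc, which makes dopamine from its precursor, was 7.75 and 7.66 against 7.54 and 7.44, and Qdpr, which recycles the cofactor of Th, was 11.74 and 11.20 against 11.18 and 11.14. Of 8 genes of opioid peptides and receptors 6 were higher and 2 lower, with a median of 0.22 that was -0.13 without MPTP mouse 1. Apart downwards was 1 (12.5%), against 19.4% of all genes, and 0 were apart upwards. That gene was Oprm1, the mu opioid receptor gene, with a gap of 0.062. It was 7.02 and 6.58 in the MPTP mice and 6.52 and 6.22 in the acupoint mice. Controls stood at 6.50 and 6.55 for Oprm1 (difference from MPTP -0.43, SE 0.17, and -0.21 without MPTP mouse 1).

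Receptor genes for GABA, the main transmitter of striatal neurons, were split, with 7 of 14 higher and 7 lower and a median of -0.02. Gabre was 5.22 and 5.0 in the MPTP mice and 5.56 and 5.49 in the acupoint mice, and Gabrg1 was 8.25 and 8.43 against 8.99 and 8.61. Both MPTP values of Gabre lay below 5.25, the mean level required for testing. Gabrd, the subunit of receptors outside synapses, was 9.00 and 8.97 against 8.41 and 8.79. Of 23 glutamate receptor genes 11 were higher and 12 lower (median -0.05), and of 36 voltage-gated channel genes 13 were higher (-0.07, but 0.06 over all 51 probe sets of these genes). Of 13 serotonin receptor genes 10 were higher, with a median of 0.03, and 4 without MPTP mouse 1, where the median was -0.13, against 0.24 without MPTP mouse 2.

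Among the glial, immune and stress lists, of 17 microglia genes 16 were higher but 0 were apart, and the median of 0.11 was -0.09 without MPTP mouse 1. Aif1, a microglial actin-binding protein gene, was 5.79 and 6.12 in the MPTP mice and 6.10 and 6.14 in the acupoint mice. Astrocyte genes had a median of 0.00, which was 0.07 without MPTP mouse 1 and -0.22 without MPTP mouse 2, and reactive astrocyte genes of -0.02, which was 0.09 and -0.11. Gfap, the astrocyte filament gene, was 8.16 and 7.45 against 8.18 and 7.84. Myelin genes had a median of -0.05, with 0.20 without MPTP mouse 1 and -0.31 without MPTP mouse 2. Inflammatory mediators had a median of 0.00, with Cxcl5 far above the rest and Tnf at 0.19, and interferon-stimulated genes stood at -0.01. Heat shock chaperones (0.02), antioxidant and metallothionein genes (-0.02), genes of endoplasmic reticulum stress (-0.04), apoptosis (-0.03), neurotrophic factors and receptors (-0.04), histones (-0.03) and the circadian clock (-0.06) had medians as close to 0 as that of all genes or nearly so. Several of these medians moved when 1 MPTP array was left out. Without MPTP mouse 1 and without MPTP mouse 2, histones stood at -0.15 and 0.09 and heat shock chaperones at 0.11 and -0.02. Apoptosis genes stood at 0.05 and -0.12, and neurotrophic factors and receptors at 0.04 and -0.13. Among single members, Asns, asparagine synthetase, was 11.17 and 11.09 against 10.81 and 10.89, and the pro-apoptotic gene Bak1 was 6.64 and 6.43 against 6.08 and 6.25. Familial parkinsonism genes had 9 of 12 lower and 3 apart downwards, Mapt, Park7 and Atp13a2, a share near the 19.4% of all genes. Their median of -0.12 was -0.04 without MPTP mouse 1, and it was 0.05 over all 26 probe sets of these genes. Mapt, the tau gene, was 9.68 and 9.42 in the MPTP mice and 9.30 and 9.24 in the acupoint mice, with controls at 9.25 and 9.32. Bdnf and Gdnf, trophic factors of dopamine neurons, were 6.79 and 6.10 against 6.19 and 6.28, and 6.30 and 6.56 against 6.45 and 6.56.

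**Figure D5:**
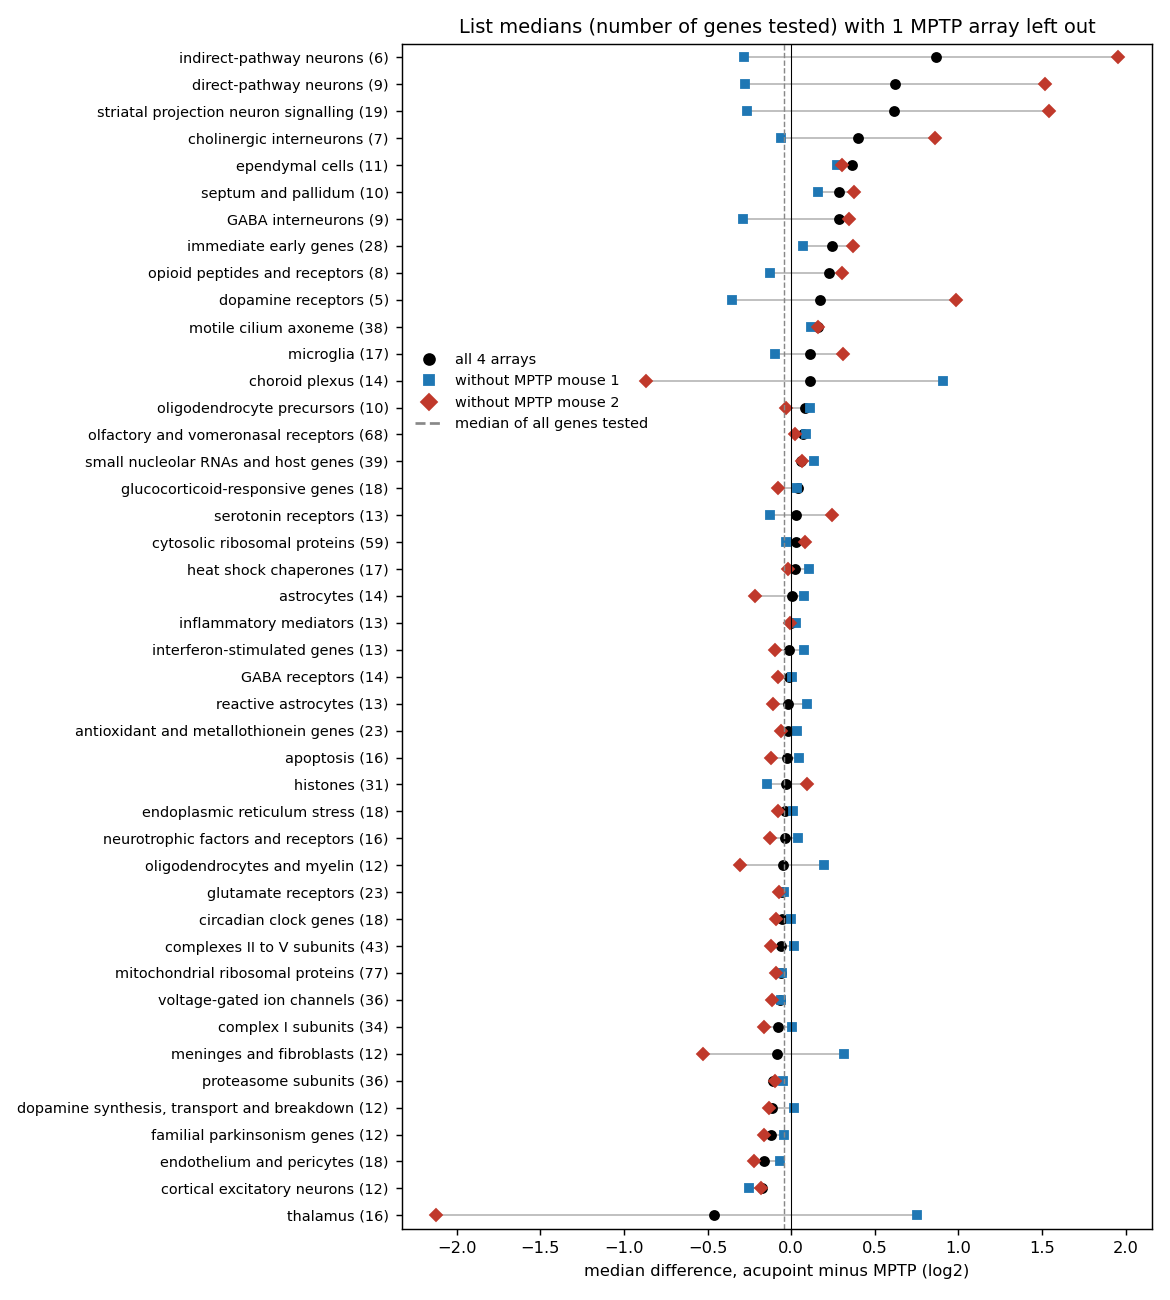
Median difference between the acupoint and MPTP groups (log2, horizontal axis) for each gene list with at least 3 tested genes: black with all 4 arrays, blue without MPTP mouse 1, red without MPTP mouse 2; the dashed line is the median of all genes tested. The ependymal list stays between 0.27 and 0.37, whereas striatal signalling runs from -0.26 to 1.54 and thalamus from -2.13 to 0.75.

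Without MPTP mouse 1, the genes with the smallest p-values were in part others. Glp1r, Avpr1a and Fam151a were among them with all arrays too. Glra1, a glycine receptor subunit gene, was 8.66 and 5.34 in the MPTP mice and 6.89 and 6.69 in the acupoint mice, so the difference was -0.21 with both MPTP mice and 1.45 against MPTP mouse 2. Ap3b2, of the neuronal vesicle adaptor complex, and Tnfrsf22, a decoy death receptor, went from 0.16 to 0.66 and from 0.21 to 0.68. Rspo2, a Wnt signal enhancer, was 5.63 and 6.57 in the MPTP mice, 5.81 and 5.74 in the acupoint mice, 6.65 and 6.48 in controls and 5.67 and 5.64 in the hip-needled mice. It was thus as high in MPTP mouse 2 as in controls and low in the other 5 MPTP-treated mice. Dkkl1 (-0.41, and -0.74 without MPTP mouse 1), Ect2 (-0.27, and -0.59) and Usp17ld (-0.91, and -2.38) were the others that were lower.

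The acupoint mice also differed from each other. Genes of the choroid plexus led where mouse 1 was higher: Ttr was 13.42 and 9.98 in acupoint mice 1 and 2, Kcnj13 10.23 and 5.59, Sostdc1 8.96 and 6.09, Kl 8.67 and 5.96, and Kcne2 7.72 and 5.31. In MPTP mice 1 and 2 Ttr was 13.39 and 8.12, the same order within the pair. Where mouse 2 was higher, Pmch, the gene of melanin-concentrating hormone, a hypothalamic peptide, was 4.66 and 6.16, and MPTP mouse 1 and non-acupoint mouse 2 reached 8.89 and 8.27. Slc6a3 was 5.73 and 6.70, Syna 5.63 and 6.75, Lrrc10b 8.22 and 9.27, and Speer4a 5.22 and 6.17. For Syna and Speer4a acupoint mouse 2 stood alone above the other 7 arrays.

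Against the other groups too, limma with Benjamini-Hochberg adjustment called 0 probe sets. For acupoint against control it found 312 (1.91%) and for acupoint against hip needling 526 (3.22%) at an unadjusted p under 0.05. These comparisons share the acupoint arrays with the one against MPTP alone. Sgk1, a kinase gene that glucocorticoids switch on, was 9.84 and 9.77 in the MPTP mice and 9.98 and 9.82 in the acupoint mice, but 8.86 and 9.07 in controls and 8.83 and 9.06 in the hip-needled mice. Sgk1 was thus high in the acupoint and MPTP mice and low in the others, with a difference between the first 2 groups of 0.09 (SE 0.13), and the difference from hip needling was 0.95 (SE 0.13), with an adjusted p of 0.964. Over the 18 tested glucocorticoid-responsive genes the median difference of the acupoint mice was 0.04 from MPTP alone, 0.08 from controls and 0.02 from hip needling.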

How the data were processed

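Each of 8 whole-transcript arrays held the striatal RNA of 1 mouse, labelled from 300 ng of total RNA per the labels' protocols. Per the submitters' processing notes the authors used Affymetrix Expression Console and RMA, which corrects background, quantile-normalises and summarises probes, with no version given, and the deposited table holds log2 values, used as they stand. That scale is taken from those notes, and the value range goes with it. No scanner files were used here, and the genome build of the arrays is not given in the sources used here. Gene symbols came from the platform's table: 1621 probe sets with several symbols and 12147 without one were left out.

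Probe sets whose mean level reached 5.25 (the 25th percentile among those having 1 symbol) were tested in R 4.3.3 by limma 3.58.1, in 1 fit (lmFit, eBayes) of all 8 arrays with 4 residual and 2.94 prior degrees of freedom and Benjamini-Hochberg adjustment over 16342 probe sets. An SE is that of the fit. An exact permutation test of 2 against 2 has a smallest two-sided p of 0.333, so none was run on single genes. Precision is limited by having 2 arrays per group. The labels call the samples separate mice. Each listed gene was represented by its brightest probe set on average, and lists were described by counts and medians, with no list test. The members, the 45 lists and the rule for naming genes were chosen with earlier results of these data known. The rule took the widest gaps (12 each way), the smallest p-values (8 each way, and 5 each way without MPTP mouse 1), up to 3 genes per list by p, 19 fixed genes and the 5 widest gaps each way within the acupoint pair, leaving out gene models, olfactory receptors and small RNAs of the nucleolus. All members of the ependymal list were named. The fit was also run on simulated data with known changes, in which all groups had the same spread. The MPTP pair spread more widely here, so that run does not show how the fit works on this contrast. Alternatives were other filters, scalings, weights and shrinkage, a replicate block, and each array left out.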

Additional observations from a re-analysis of the deposited data

How the results depend on the processing

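The number of probe sets called was 0 under every setting that kept all 8 arrays, with limma and Benjamini-Hochberg adjustment, and ran from 0 to 1453 with 1 array of the 2 groups left out. With 1 array left out, the number at an unadjusted p under 0.05 ran from 137 to 1841 higher and from 249 to 2397 lower, and the number apart by at least 1 from 28 to 348 higher and from 4 to 218 lower, the highest always without MPTP mouse 2. Against 170 higher and 418 lower on all arrays, there were 263 higher without a filter and 92 with the filter at the median, 261 and 247 with centred arrays, 259 higher after quantile normalisation, 87 and 129 with the 4 arrays of the 2 groups alone, and 81 and 136 with array weights. Without a filter 5 rather than 3 were apart downwards by at least 1. The mouse numbers are not said to pair mice across groups. With them as a replicate block 0 were called, with 151 higher and 346 lower at an unadjusted p under 0.05. In this balanced design the block leaves every group difference as it is. Deviations of same-numbered MPTP and acupoint mice correlated at 0.40, and those of the other pairs of groups between -0.49 and 0.27.

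Of the 173 named genes, 32 turned direction without MPTP mouse 1, 12 without MPTP mouse 2, 7 without acupoint mouse 1 and 4 without acupoint mouse 2. Their acupoint minus MPTP differences with 1 array left out ran from and to: Ap3b2 -0.34 and 0.66, Bdnf -0.55 and 0.14, Clic6 -0.42 and 1.18, Drd1 -0.39 and 2.36, Drd2 -0.36 and 2.03, Ect2 -0.59 and 0.050, Fos -0.28 and 0.24, Gdnf -0.056 and 0.21, Gfap -0.15 and 0.56, Glra1 -1.87 and 1.45, Gsr -0.060 and 0.44, Hspa4l -0.56 and 0.091, Htr1b -0.19 and 1.95, Ifi27 -0.37 and 0.027, Isl1 -0.13 and 1.05, Kcne2 -1.10 and 1.30, Kcnj13 -2.22 and 2.85, Kl -1.24 and 1.48, Lef1 -2.08 and 0.23, Lhx8 -0.060 and 0.86, Lrrc10b -0.25 and 1.47, Mog -0.42 and 0.19, Nos1 -0.12 and 0.84, Opalin -0.57 and 0.12, P2ry12 -0.034 and 0.55, Pdyn -0.39 and 1.99, Penk -0.10 and 1.88, Pmch -3.48 and 1.30, Ppp1r1b -0.26 and 2.41, Rasd2 -0.0049 and 2.07, Rspo2 -0.80 and 0.14, Slc18a3 -0.16 and 1.11, Slc5a7 -0.18 and 2.34, Slc6a20a -0.61 and 0.16, Slc6a3 -0.62 and 0.35, Sostdc1 -0.85 and 2.02, Sst -0.11 and 1.29, Syna -0.18 and 0.94, Synpo2 -2.16 and 0.25, Tac1 -0.19 and 2.74, Th -0.23 and 0.48, Tnfrsf22 -0.25 and 0.68, Tnnt1 -2.22 and 0.24, Ttr -1.69 and 3.58, Usp17ld -2.38 and 0.56, Vcan -0.0047 and 0.27. Only Fos turned under another scaling, to 0.015 with centred arrays and 0.0078 after quantile normalisation. Without MPTP mouse 2, 58 named genes passed the adjusted threshold. The cause was not tested.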
